A study of Arabidopsis thaliana with 2 samples.

Results

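The cysteine proteases and the inhibitors that act on proteases were examined in root tip RNA of Arabidopsis thaliana. Members were the loci whose deposited protein name holds cysteine protease, cysteine proteinase, cysteine peptidase, cystatin or Kunitz, together with DR4 (AT1G73330). This gave 60 of the 22937 loci listed. By the domains in the RefSeq annotation they fell into 23 papain-like proteases, 17 deubiquitinases and SUMO proteases, 1 calpain, 14 cystatins and cystatin-related proteins and 5 Kunitz-type inhibitors. The label held for most members, but the 17 deubiquitinases and SUMO proteases and the calpain were taken in through the words "cysteine proteinases superfamily" or similar and do a different job in the cell.

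Papain-like proteases cut proteins in the vacuole, the apoplast and compartments derived from the endoplasmic reticulum, with a cysteine in the active site. In plants they recycle protein, act in defence, and clear the contents of cells that die as part of development, such as the water-conducting cells of the xylem. Cystatins are small proteins that plug the active site of papain-like enzymes. Kunitz-type inhibitors are a separate family that mostly blocks serine proteases, with some members that block cysteine proteases.

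The study compared the wild-type accession Col with atphb3, a mutant of the mitochondrial inner membrane scaffold PROHIBITIN 3 (PHB3) whose allele the labels do not name. Each group held 1 library, so the folds below have no replicate check and no test, and each interval is a 95% Clopper-Pearson interval that covers counting error only. Both groups were sown on Murashige and Skoog medium, kept cold for 3 days and grown at 20 °C in 16 h of light and 8 h of dark, and the labels give the root tip as the site although the extraction protocol also names shoots. The libraries held 7451022 reads in Col and 7384348 in the other. PHB3 itself had 915 and 863 reads, a ratio of 0.952 (0.866 to 1.05), so its level did not check the label, and "the library labelled atphb3" is used throughout. Of the tissue markers, the leaf genes had 2971 reads in Col against 173 in the library labelled atphb3, while the quiescent centre gene WOX5 had 24 and 82 and the root cap regulators BRN1, BRN2 and SMB had 69 and 121, 40 and 106, and 2 and 1. No marker listed in the table was at 0 in either library, but the senescent leaf protease SAG12 is not among the listed loci.

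Papain-like enzymes share a catalytic cysteine that is followed by a tryptophan. The windows below show the 60 coding bases that start 5 bases before the codon of that cysteine, with the codon in capitals. They are given for the members lower in the library labelled atphb3 by the widest margins or at the highest levels, each with a neighbour or relative among the members. The sequences are from RefSeq, assembly TAIR10.1, and each lies in a single exon. The pairs are AT4G11320 (chr4:6887971-6888030, plus strand) with AT4G11310 (chr4:6884521-6884580, plus strand), CEP3 (chr3:17906356-17906415, plus strand) with CEP2 (chr3:17898323-17898382, plus strand), AT1G02300 (chr1:454272-454331, plus strand) with AT1G02305 (chr1:456853-456912, plus strand), and RD19 (chr4:18216685-18216744, minus strand) with AT4G16190 (chr4:9172090-9172149, plus strand).
AT4G11320: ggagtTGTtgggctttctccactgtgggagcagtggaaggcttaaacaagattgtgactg
AT4G11310: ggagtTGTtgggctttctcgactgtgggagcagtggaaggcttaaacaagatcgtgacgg
CEP3: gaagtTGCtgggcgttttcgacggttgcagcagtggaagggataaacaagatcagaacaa
CEP2: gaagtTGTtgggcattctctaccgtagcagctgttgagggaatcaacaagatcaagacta
AT1G02300: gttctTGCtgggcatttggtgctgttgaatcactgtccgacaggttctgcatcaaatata
AT1G02305: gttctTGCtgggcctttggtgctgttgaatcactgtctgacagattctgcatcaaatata
RD19: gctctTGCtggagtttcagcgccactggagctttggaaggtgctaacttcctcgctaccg
AT4G16190: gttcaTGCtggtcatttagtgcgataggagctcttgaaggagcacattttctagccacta

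The windows differed at 3 bases between AT4G11320 and AT4G11310, at 3 between AT1G02300 and AT1G02305, at 14 between CEP2 and CEP3 and at 21 between RD19 and AT4G16190. Between copies that differ at only 3 bases here, reads of one can be counted for the other.

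A locus with at least 50 reads in at least 1 library is called measured, and 36 of the 60 members were. In the library labelled atphb3, 8 of the 36 were lower by 2-fold or more, 3 were higher by as much and 25 lay between. Over all 12931 measured loci, 10.2% were at least 2-fold lower and 9.77% at least 2-fold higher. The median log2 ratio of the measured members was -0.15, against 0.08 over all measured loci. Of the members 16 lay above 0 and 20 below, beside 7065 above and 5866 below among the 12931 measured loci. At least 10-fold lower were 4 members, a size reached by 0.974% of all measured loci. The 4 are not an independent count beside this share. Among them, DR4 was added to the rule by its locus, with earlier results of these data known. CEP3 and AT1G02300 reached 50 reads in Col alone. Most of the difference in reads came from 2 of the most abundant transcripts of the Col library, the protease AT4G11320 and the inhibitor DR4. The members together took 2.74% of all reads in Col against 0.701% in the library labelled atphb3. In bulk tissue, fewer cells of a type and less RNA per cell cannot be told apart.

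**Figure D1:**
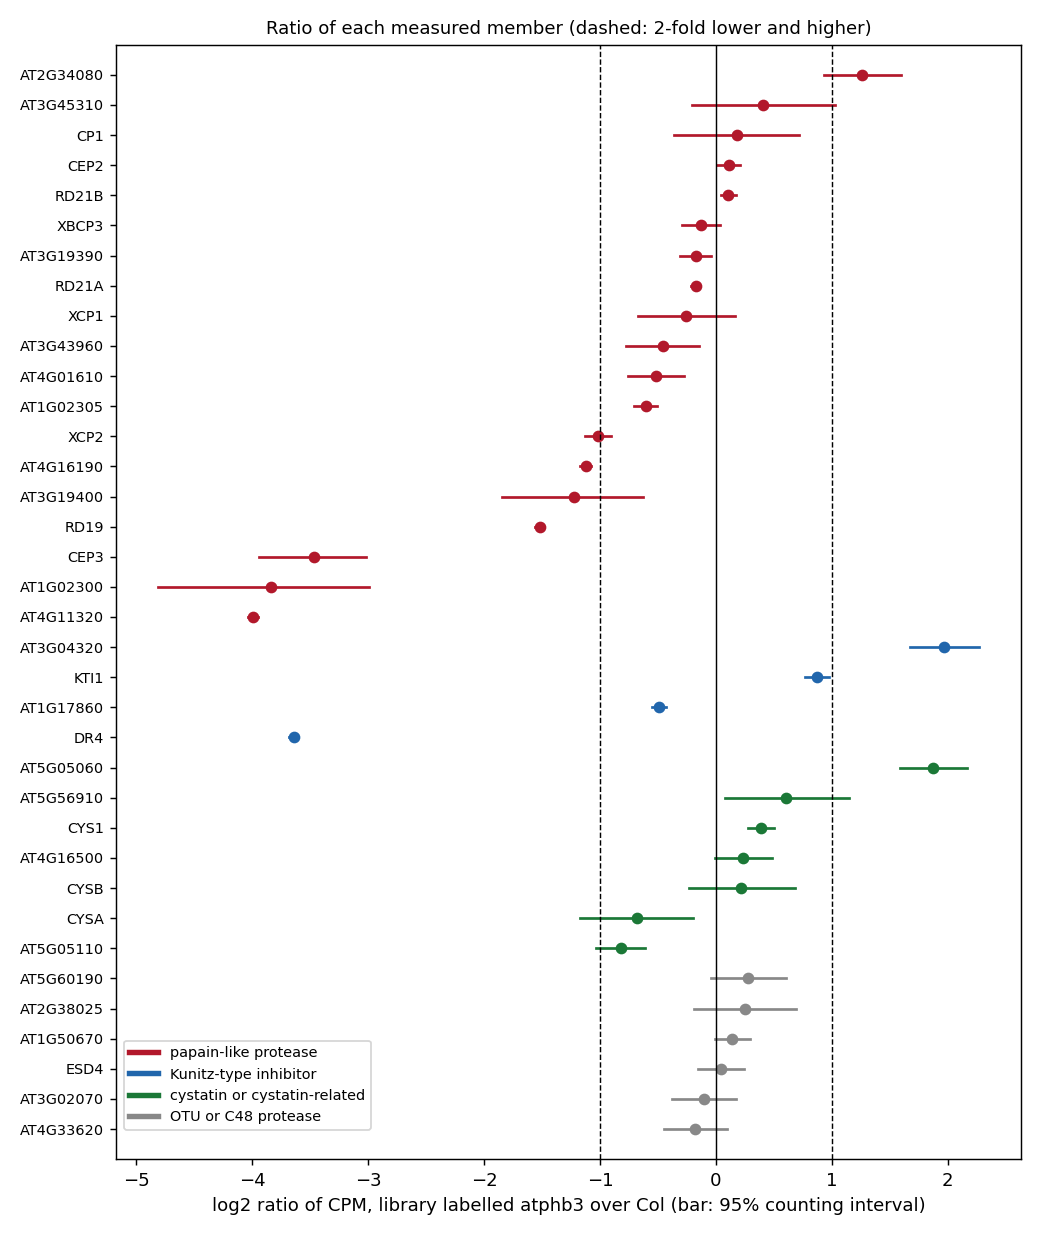
Log2 ratio of CPM (reads scaled to the library total), library labelled atphb3 over Col (horizontal axis) for the 36 measured members, coloured by class; bars are 95% counting intervals and dashed lines mark 2-fold. AT4G11320, AT1G02300, DR4 and CEP3 stand apart on the left at ratios of 0.0629 to 0.0906, and AT3G04320, AT5G05060 and AT2G34080 lie past the line on the right.

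Counting noise limited some of these calls. The counting interval lay wholly past 2-fold for 6 of the 8 lower members and for 2 of the 3 higher ones, and it held 1 for 12 of the 36. Of the measured members, 32 had at least 50 reads in both libraries, and among these 5 were at least 2-fold lower, 3 higher and 24 within. The shares over all loci given above need 50 reads in only 1 library, so they are not matched to this stricter count. CEP3, AT1G02300 and AT3G19400 were measured through Col alone and AT3G45310 through the library labelled atphb3 alone, so for these the difference helped decide that they entered. The 24 members that were not measured had at most 47 reads in either library.

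Papain-like proteases held 7 of the 8 lower members. Of these 23 genes, 19 were measured, with 7 at least 2-fold lower, 1 higher, 11 within 2-fold and a median log2 ratio of -0.46. Over all measured loci, 10.2% were at least 2-fold lower and 9.77% higher. CEP3, AT1G02300 and AT3G19400, among the 7, were measured through Col alone. Their summed reads were 122976 in Col against 35179 in the library labelled atphb3, giving a ratio of 0.289. Without AT4G11320 the sums were 52981 and 30815. Of the 18 remaining measured genes 13 lay below a log2 ratio of 0, beside 5866 of all 12931 measured loci.

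AT4G11320 (chr4:6887254-6889059, plus strand), which RefSeq also calls CP2, encodes a papain family protease of 371 residues. It had 69995 reads in Col against 4364 in the library labelled atphb3, 15.9-fold lower (15.4 to 16.4). Per length (RPKM, reads per kilobase of transcript scaled to the library total) its level went from 6569 to 413, and its rank among all loci from 6 to 211. Among the measured papain-like members it had rank 1 by RPKM in Col and rank 4 in the library labelled atphb3, where RD21A had rank 1. Relatives whose deposited names lack the words of the rule were not ranked.

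Its neighbour AT4G11310, which lies 1648 bases away and encodes a protein 90.1% identical, had 13 reads in Col against 0 in the library labelled atphb3. Set against a floor of 3 counts it was at least 4.29-fold lower, and the counting interval, which also covers the error of the 13 reads, gave a bound of 3.02-fold. The coding sequences share runs of up to 63 identical bases, and the sources used here do not say how reads matching both were assigned, so these 13 reads may not be its own. The 250 bases upstream of these genes were 50.9% identical, and their levels in Col were 6569 and 1.30 RPKM.

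The 3 measured ER body markers were all at least 4-fold lower. The ER body glucosidase PYK10 had 275488 and 60980 reads and was 4.48-fold lower (4.44 to 4.52), and the 4 listed genes together went from 37496 to 8377 CPM. Leaf and phloem markers were lower as well. All 4 listed leaf genes were at least 2-fold lower, at 399 and 23.4 CPM in sum, and so were both measured phloem genes, at 261 and 51.3 with the third, APL, at 4 and 1 reads. The phloem sucrose carrier SUC2 had 1107 and 73 reads. The 8 xylem markers, which include the members XCP1 and XCP2, summed to 724 and 454 CPM, of which XCP2 itself gave 258 and 128. Markers of the root cap (66.6 and 80.8 CPM), root hair (74.1 and 151) and endodermis (254 and 328) had higher sums in the library labelled atphb3. In these lists RNS3 with 385 and 369 reads and CASP1 with 1106 and 1062 were not higher. Nor was SMB, which has 2 listed transcripts, with 2 and 1 reads, while the other genes of these lists were higher. The part of leaf tissue, phloem, xylem and ER bodies in the lower levels of AT4G11320, DR4, CEP3 and the other members was not tested.

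RD19 (chr4:18215556-18217482, minus strand) and AT4G16190 (chr4:9171467-9173105, plus strand) are related proteases whose proteins are 69.8% identical, and RD19 was first described as a transcript induced by dehydration. RD19 had 17762 reads in Col against 6135 in the library labelled atphb3, 2.87-fold lower (2.79 to 2.95). AT4G16190 had 13200 and 6003, 2.18-fold lower (2.11 to 2.25). Both stood among the 21 highest loci in Col by RPKM, at ranks 16 and 21, and both stood outside the highest 100 in the library labelled atphb3, at ranks 124 and 111. A closer relative of RD19 by sequence, AT2G21430 at 83.3% identity, was barely expressed, with 19 and 31 reads.

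**Figure D2:**
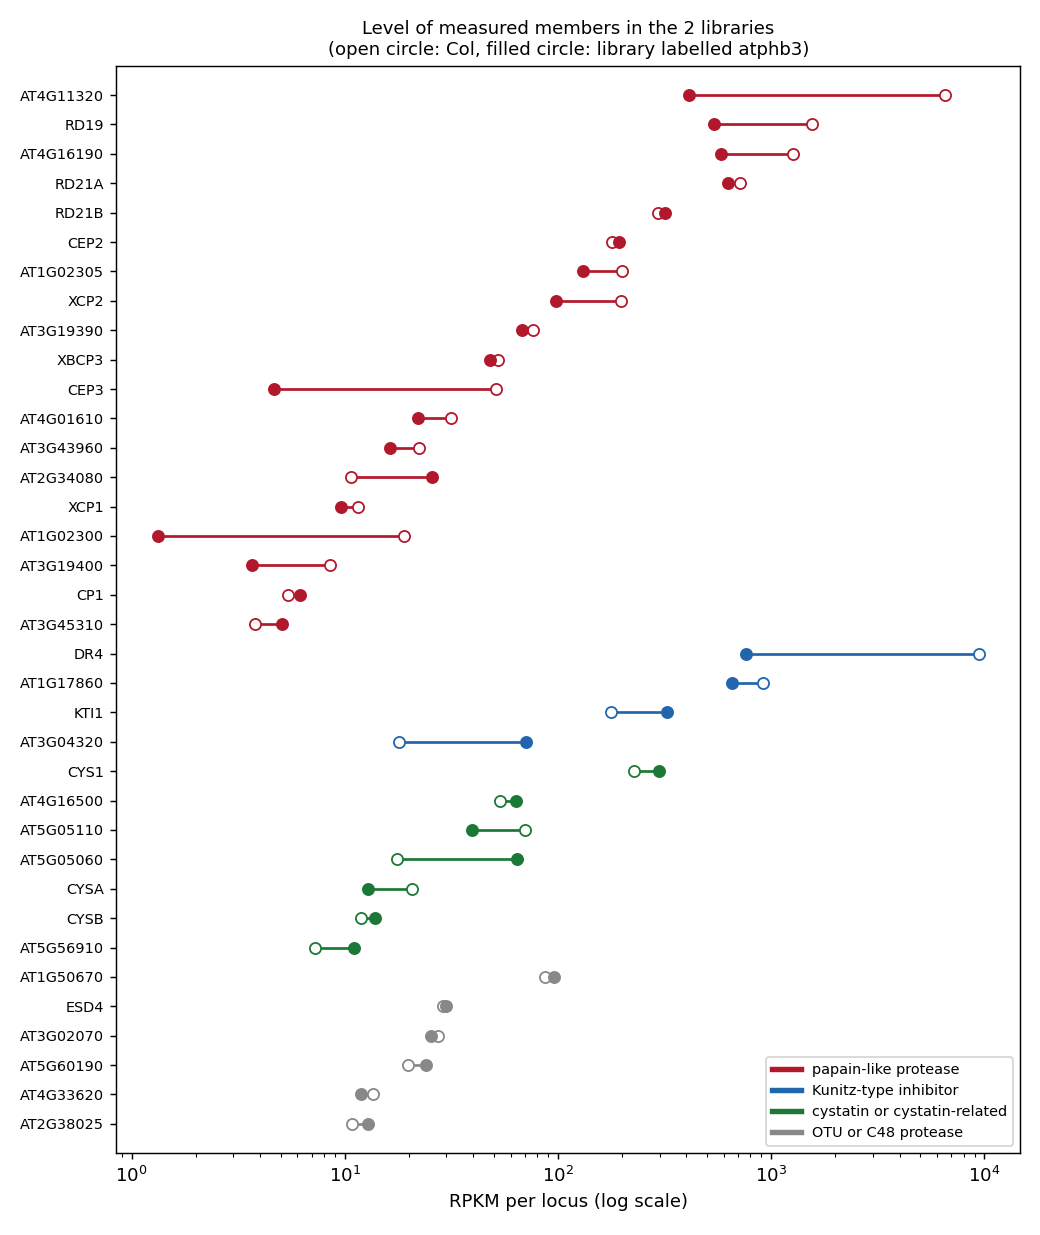
RPKM per locus on a log axis for the 36 measured members, sorted by level within each class; open circles are Col, filled circles the library labelled atphb3, and lines join the 2 libraries. AT4G11320 and DR4 have the longest lines among the highly expressed genes, while RD21A, RD21B and CEP2 have nearly touching circles.

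CEP1, CEP2 and CEP3 are the 3 members whose proteins end in KDEL, a signal that keeps a protein in the endoplasmic reticulum, and enzymes of this kind are known from tissues whose cells die during development. CEP3 (chr3:17905725-17907561, plus strand) had 501 reads in Col against 45 in the library labelled atphb3, giving a ratio of 0.0906 (0.0653 to 0.123). CEP2 (chr3:17897739-17899208, plus strand), 6373 bases from it, had 1633 and 1748, a ratio of 1.08 (1.01 to 1.16). CEP1, best known from the tapetum of the anther, had 25 and 12 reads and was not measured. The neighbours CEP2 and CEP3 thus had log2 ratios of 0.11 and -3.45, and their coding sequences share no run longer than 13 bases.

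The cathepsin B type proteases, which act in defence and in cell death, are 3 genes. AT1G02300 (chr1:453288-455463, plus strand) had 173 reads in Col against 12 in the library labelled atphb3, 14.3-fold lower (7.97 to 28.2). Its neighbour AT1G02305 lies 168 bases away, its protein is 86.3% identical, and it had 2085 and 1361 reads, 1.52-fold lower (1.42 to 1.63). AT4G01610, on another chromosome, had 353 and 245 reads, 1.43-fold lower (1.21 to 1.69). All 3 were lower, and only AT1G02300 passed 2-fold. The coding sequences of AT1G02300 and AT1G02305 share runs of up to 53 bases, so the reads of the weaker gene are uncertain, and AT1G02305 also overlaps another listed locus.

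XCP2 and XCP1 are xylem proteases that digest the contents of maturing tracheary elements, the water-conducting cells. XCP2 (chr1:7252174-7253731, plus strand) had 1921 reads in Col against 942 in the library labelled atphb3, 2.02-fold lower (1.87 to 2.19), and its interval crosses 2-fold. XCP1 (chr4:16810482-16812009, plus strand) had 107 and 89, a ratio of 0.839 (0.626 to 1.12), and has several listed transcripts. Of the 8 xylem markers 1, XCP2 itself, was at least 2-fold lower and 7 lay within 2-fold, with a median log2 ratio of -0.51. The part of the xylem markers in the XCP2 result was not tested.

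AT3G19400 (chr3:6725468-6727000, plus strand) had 80 reads in Col against 34 in the library labelled atphb3, 2.33-fold lower (1.54 to 3.59). Its neighbour AT3G19390, 272 bases away with a protein 73.5% identical, had 940 and 826. AT2G34080 (chr2:14393181-14394858, minus strand) was the only papain-like gene at least 2-fold higher, with 109 and 259 reads, a ratio of 2.40 (1.91 to 3.03).

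The granulin proteases carry an extra domain at the end of the protein and include RD21A, a major protease activity of Arabidopsis leaves that is also known from ER bodies. All 4 were measured and within 2-fold, with log2 ratios between -0.17 and 0.11. RD21A (chr1:17282825-17285670, minus strand) had 9340 reads in Col against 8199 in the library labelled atphb3, 1.13-fold lower (1.10 to 1.16). RD21B, its closest relative at 79.4% identity, had 3777 and 4030. Their summed RPKM was 1135 in Col against 1063 in the library labelled atphb3, while the other papain-like genes outside the cathepsin B type went from 9892 to 1906, or from 3323 to 1493 without AT4G11320.

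The 17 members that cut ubiquitin or SUMO from other proteins included no gene past 2-fold among those measured. There were 6 of these, with log2 ratios between -0.17 and 0.28 and intervals that all held 1. AT1G50670, an OTU deubiquitinase that RefSeq names OTU2, had 679 reads in Col against 743 in the library labelled atphb3, giving a ratio of 1.10 (0.994 to 1.23). ESD4, a SUMO protease that holds back flowering in short days, had 413 and 422, a ratio of 1.03 (0.898 to 1.18). The 11 that were not measured included AT2G39320 with 7 and 0 reads, and over all classes only 2 of the 8 members with several listed transcripts were measured. The calpain DEK1, which is needed to form epidermis and has 3 listed transcripts, had 10 and 17 reads.

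The Kunitz-type inhibitors held both the lowest and the highest ratio among the inhibitors. DR4 (chr1:27568718-27569717, minus strand) encodes a protein of 209 residues named drought-repressed 4, and RefSeq describes it as a root transcript that declines under progressive drought. It had 70636 reads in Col against 5603 in the library labelled atphb3, 12.5-fold lower (12.2 to 12.8). Per length its level was 9480 RPKM in Col, rank 4 of all loci, and 759 in the library labelled atphb3, rank 69. It alone made up 0.948% of all reads in Col against 0.0759% in the library labelled atphb3.

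KTI1 (chr1:27547274-27548190, minus strand), 20527 bases from DR4, is known to hold back cell death in infected leaves. It had 1216 reads in Col against 2208 in the library labelled atphb3, giving a ratio of 1.83 (1.71 to 1.97), the opposite direction from DR4 but within 2-fold. AT1G17860, the other Kunitz gene on chromosome 1 among the members, had 5051 and 3561, 1.41-fold lower (1.35 to 1.47), and overlaps another listed locus. The DR4 protein was 34.3% identical to KTI1 and 36.6% to AT1G17860.

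AT3G04320 (chr3:1143791-1144661, plus strand) had 117 reads in Col against 454 in the library labelled atphb3, 3.92-fold higher (3.19 to 4.84). AT3G04330 lies 1050 bases from it, its protein is 83.5% identical, and it had 24 and 4 reads, which left it unmeasured. The shared runs of up to 46 coding bases make the few reads of AT3G04330 uncertain. Without DR4 the other 4 Kunitz genes summed to 860 CPM in Col against 843 in the library labelled atphb3.

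**Figure D3:**
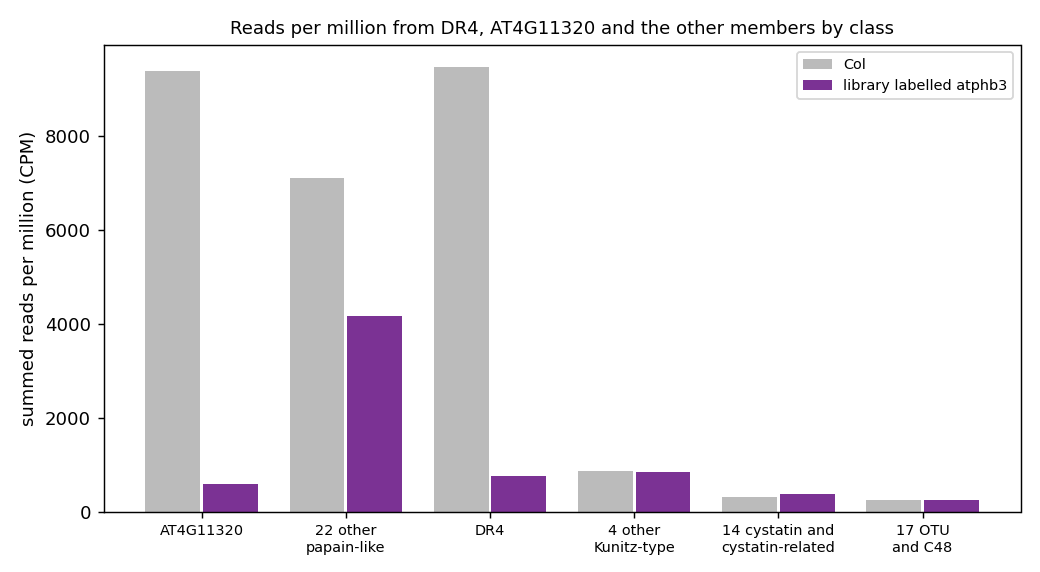
Summed CPM of AT4G11320, DR4 and the remaining members by class; grey bars are Col and purple bars the library labelled atphb3, with 1 library each and no error bars. AT4G11320 and DR4 account for the tallest grey bars and show the widest gap between the libraries, the other papain-like genes go from 7111 to 4173, and the last 3 classes have low bars in both.

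The cystatins, the direct inhibitors of papain-like enzymes, had no measured member at least 2-fold lower. Of the 14 cystatins and cystatin-related proteins 7 were measured, 1 at least 2-fold higher and 6 within, with a median log2 ratio of 0.24. Their sum was 312 CPM in Col against 387 in the library labelled atphb3. The 7 classed as classical cystatins had 5 measured, all within 2-fold, and went from 287 CPM in Col to 312. The 6 classed as cystatin-related had 2 measured, 1 of them at least 2-fold higher, and went from 25.2 CPM in Col to 74.9. The other measured one, AT5G56910, had 51 and 77 reads and carries the deposited name of an I25 cystatin region. A gene with both the classical and the cystatin-related domain was classed as cystatin-related, so this split is not firm. CYS1, a cystatin known to block cell death triggered by pathogens, was the most highly expressed and had 1156 and 1503 reads, a ratio of 1.31 (1.21 to 1.42). CYSB had 77 and 89, a ratio of 1.17 (0.850 to 1.60), and AT4G16500, which RefSeq also calls CYS4, had 254 and 297. AT5G05110 and CYSA ran the other way, at 518 and 291 reads and at 97 and 60, which is 1.76-fold (1.53 to 2.04) and 1.60-fold (1.15 to 2.25) lower. CYSA and CYSB both overlap other listed loci, and CYSB has several transcripts.

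AT5G05060 (chr5:1493719-1495085, minus strand) was classed by its plant cystatin-related domain, and whether it also holds the classical cystatin domain was not checked. It had 128 reads in Col against 464 in the library labelled atphb3, 3.66-fold higher (3.00 to 4.48). AT5G05040, 5750 bases away with a protein 95.3% identical and shared runs of up to 98 coding bases, had 0 and 1 reads. Which of these near copies the reads came from depends on how the authors assigned them. Among the classical cystatins too shallow to be measured, AT5G47550 had 22 and 47 reads, a ratio of 2.16 (1.27 to 3.76), and CYS2 had 14 in each library.

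**Figure D4:**
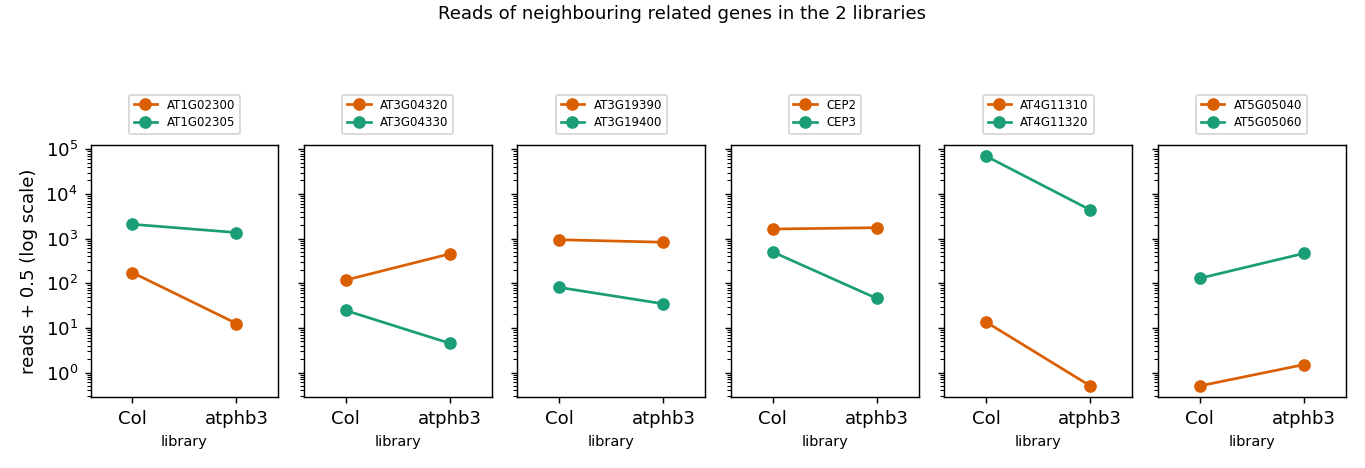
Reads plus 0.5 on a log axis for 6 pairs of related neighbouring genes, 1 pair per panel with Col on the left and the library labelled atphb3 on the right; a gene at 0 reads is drawn at 0.5. CEP3, AT1G02300 and AT4G11320 slope steeply down, CEP2 and AT3G19390 are nearly flat, and the lines of AT3G04320 and AT3G04330 run in opposite directions.

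Several neighbouring copies differed both in level and in ratio. AT4G11320 and AT4G11310 differed in level, but both were lower, at log2 ratios of -3.99 and -4.74. The latter rests on 13 and 0 reads that may not be its own. In Col, CEP2 stood at 180 RPKM and CEP3 at 51.2, and AT1G02305 stood at 199 and AT1G02300 at 18.9. The log2 ratio of CEP3 minus that of CEP2 was -3.56, that of AT1G02305 minus that of AT1G02300 was 3.18, and that of AT3G19400 minus that of AT3G19390 was -1.04. CEP3, AT1G02300 and AT3G19400 were measured through Col alone, so a lower ratio in them is in part set by the read minimum. The cystatin-related gene AT5G05060 and the cystatin AT5G05110, 12281 bases apart and only 21.0% identical, had log2 ratios of 1.87 and -0.82.

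The upstream regions of DR4 and AT4G11320, the 2 abundant genes that were lower, are shown for what the letters hold. So are those of AT3G04320, a Kunitz-type gene, and AT5G05060, a cystatin-related one, which were both higher. Each is the 250 bases before the transcript start in RefSeq, assembly TAIR10.1, with matches to the searched motifs in capitals. They are DR4 (chr1:27569824-27570073, minus strand), AT4G11320 (chr4:6886916-6887165, plus strand), AT3G04320 (chr3:1143444-1143693, plus strand) and AT5G05060 (chr5:1495137-1495386, minus strand).
DR4: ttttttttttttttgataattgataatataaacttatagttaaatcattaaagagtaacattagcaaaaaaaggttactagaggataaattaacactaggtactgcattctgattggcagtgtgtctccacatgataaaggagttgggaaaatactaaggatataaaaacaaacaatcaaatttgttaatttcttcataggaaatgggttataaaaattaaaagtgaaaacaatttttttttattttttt
AT4G11320: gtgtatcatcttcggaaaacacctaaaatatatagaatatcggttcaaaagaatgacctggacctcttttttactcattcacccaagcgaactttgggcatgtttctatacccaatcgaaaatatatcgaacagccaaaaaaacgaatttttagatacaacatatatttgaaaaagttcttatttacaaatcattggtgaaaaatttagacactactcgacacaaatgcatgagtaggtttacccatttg
AT3G04320: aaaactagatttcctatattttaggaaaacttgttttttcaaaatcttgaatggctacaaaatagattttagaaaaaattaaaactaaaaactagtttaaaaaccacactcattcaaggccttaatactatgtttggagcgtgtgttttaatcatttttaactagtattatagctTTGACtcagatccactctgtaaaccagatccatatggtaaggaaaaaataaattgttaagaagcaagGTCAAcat
AT5G05060: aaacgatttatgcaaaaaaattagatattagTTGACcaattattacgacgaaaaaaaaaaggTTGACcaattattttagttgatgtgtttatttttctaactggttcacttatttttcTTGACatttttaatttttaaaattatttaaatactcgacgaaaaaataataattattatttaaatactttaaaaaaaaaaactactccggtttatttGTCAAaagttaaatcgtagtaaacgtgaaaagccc

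Each window was extended 50 bases past the start and searched on both strands for 4 motifs. These were the W-box core TTGAC, bound by WRKY factors, the G-box CACGTG, the core CTTNAAAGC of a motif found before genes of tracheary elements, and the mitochondrial dysfunction motif, which is CTTG and CANG with 5 bases between them. The windows of DR4 and AT4G11320 held none of the 4. That of AT3G04320 held the W-box core at positions -75 and -8 from the start, and that of AT5G05060 held it at -219, -188, -132 and -35. The W-box core was in 50.5% of all 27443 promoters of this length and in 30 of the 60 members, among them all 3 of the higher members and 3 of the 8 lower ones. The G-box was in 7.68% of all promoters and 9 of 60 members, including RD19, and the tracheary core in 1.30% and in 1 member, XCP1. The mitochondrial dysfunction motif was in 2.14% of all promoters and in 0 of the 60 windows. A match describes the letters and is not a binding site.

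Other protease families of cell death and of the vacuole lie outside the members and were described by their counts. Of the 3 listed vacuolar processing enzymes, which mature vacuolar proteases, GAMMA-VPE had 4816 reads in Col against 2152 in the library labelled atphb3, 2.22-fold lower (2.11 to 2.33), and ALPHA-VPE and BETA-VPE lay within 2-fold. Of 7 measured metacaspases 2 were at least 2-fold lower, MC6 with 119 and 38 reads and MC7 with 197 and 52. MC4, the most highly expressed, had 2932 and 2901. SERPIN1, a serpin that inhibits RD21A, had 745 and 551 reads. The 4 measured proteases and nucleases of developmental cell death all lay within 2-fold, with a median log2 ratio of -0.75, and the most highly expressed, scpl48, had 2137 and 1279 reads. Of their regulators, VND7 had 48 and 61 reads, and VND6 with 45 and 19 and SMB with 2 and 1 were not measured.

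**Figure D5:**
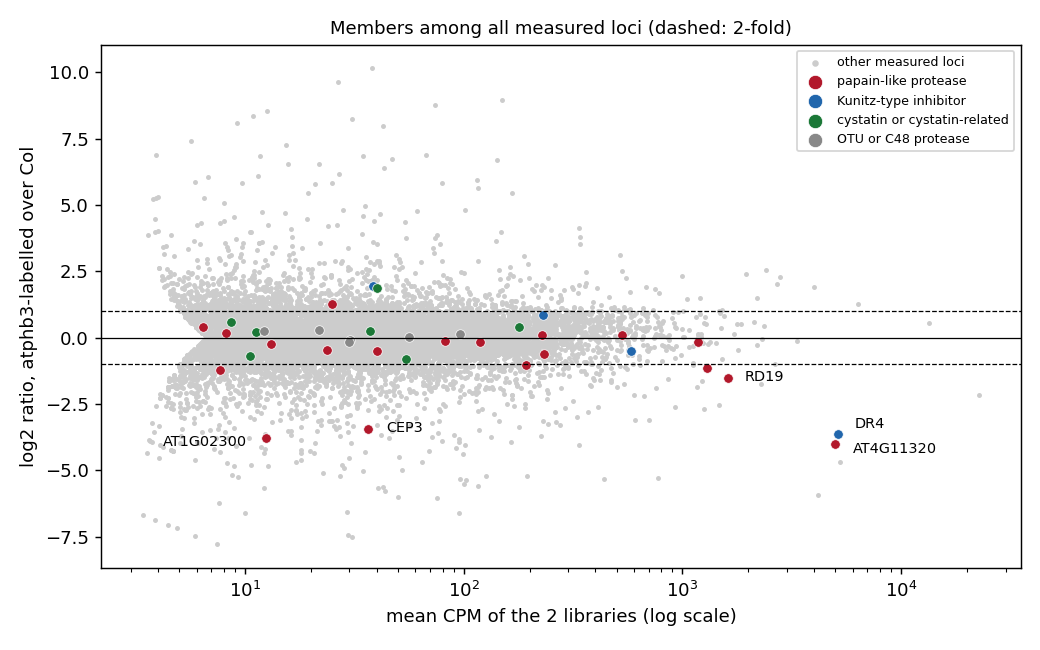
Log2 ratio, library labelled atphb3 over Col, against mean CPM on a log axis for all 12931 measured loci (grey) and the 36 measured members (coloured by class); dashed lines mark 2-fold. DR4 and AT4G11320 lie at the far lower right among the most abundant loci, and most other members lie between the dashed lines.

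Of the 100 loci with the highest mean RPKM, 16 were at least 2-fold lower in the library labelled atphb3 and 17 higher by as much. Members made up 6 of these 100, namely DR4, AT4G11320, RD19, AT4G16190, AT1G17860 and RD21A, and the first 4 were at least 2-fold lower. Of the other 94, 12 were at least 2-fold lower and 17 higher, which is 12.8% and 18.1% beside the 10.2% and 9.77% of all measured loci. Without DR4 and AT4G11320 the remaining 58 members summed to 63581 reads in Col against 41830 in the library labelled atphb3, 1.51-fold lower in sum.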

How the data were processed

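Per the labels' protocols, cDNA for 1 Col and 1 atphb3 library was made with random primers and read on an Illumina sequencer. Per the file headers, the deposited table gives for each of 26425 transcripts a read count and an RPKM value in each library, a log2 ratio, a transcript length, and the authors' p-value and false discovery rate. The deposited RPKM is the count divided by transcript length and column total, as its values show. The deposited log2 ratio is that of the RPKM values. The authors' p-values rest on 1 library per group and were left out. The aligner, the genome build and the treatment of reads that match several transcripts or genes are not given in the sources used here. No strand-marking kit is named, so reads of 8 members that overlap another listed locus are uncertain.

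Counts were summed over transcripts to loci and scaled to the library total (CPM). Folds are CPM ratios with 95% Clopper-Pearson intervals, and log2 ratios add 0.5 reads. Reads carry no molecular identifiers, so intervals and the floor of 3 counts cover counting error only. A locus was measured where either library held at least 50 reads, and 1 read equals 0.134 CPM in Col and 0.135 CPM in the library labelled atphb3. Classes follow InterPro domains in the RefSeq notes, and all 60 members matched a RefSeq locus. Named were measured members at least 2-fold apart, the 2 most highly expressed of each class, and DR4 with its nearest Kunitz members. Also named were a set of well-known family members and, for related lists, members 2-fold apart and the most expressed. AT4G11310, other neighbours of named members, further class members and markers were named beyond this rule, after their values were seen. SAG12 is not listed, and 3 cell death genes and a Kunitz gene of the rule had no symbol match. Members and lists were chosen with earlier results of these data known. Protein and coding identities come from global alignments of translated RefSeq coding sequences. The calculation was tested on simulated counts. Python 3.11.15 with numpy 2.4.6, pandas 2.3.3, scipy 1.17.1, Biopython 1.88 and matplotlib 3.10.9 was used, and R 4.3.3 with edgeR 4.0.16 and DESeq2 1.42.0 for alternative scaling of the counts.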

Additional observations from a re-analysis of the deposited data

How the results depend on the processing

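Alternatives were TMM and DESeq2 scaling, the authors' RPKM, a pseudocount of 2 reads, a minimum of 200 reads, no filter, and loci with 1 listed transcript. Chosen after seeing the data were the members without DR4 and AT4G11320, the papain-like, cystatin and Kunitz members alone, and the members that overlap no other listed locus. With no filter, which lets in members of a few reads, 7 of 60 were past 2-fold on the higher side and 16 on the lower. Under the other alternatives the counts stayed within 1.5 times of the reported 3 and 8, with 3 and 6 at a minimum of 200 reads and also without DR4 and AT4G11320. The median log2 ratio lay between -0.22 (TMM) and -0.10 (no overlapping loci). None of the 22 named members tried changed its side of 2-fold under TMM, DESeq2 or RPKM. ESD4, which was near 1, turned to 0.986 under TMM, while DR4 had 0.0765 and AT4G11320 0.0601. No paired analysis was possible because each group has 1 library. Depth limits the 24 members below 50 reads. Of the 8 members with several listed transcripts 2 were measured, beside 34 of the 52 with 1. How reads shared by transcripts were counted is not given, and its part in these low counts was not tested. With 1 library per group, differences between the plants, the harvests or the libraries cannot be told apart from the genotype.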
